A study of Rattus norvegicus with 12 samples.

Results

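The genes described here are 10 that carry or damp an inflammatory signal: the cytokines Tnf, Il1a, Il1b, Il6 and Il10, the receptor antagonist Il1rn, the interleukin-10 receptor chain Il10ra, and the enzymes Acod1, Ptgs2 and Nos2. They were taken by name as a functional group, with earlier results of these data known. Each was matched through its RefSeq accession to 1 probe, printed as 1 spot, on an array that holds 13903 genes with a symbol. All 10 were among the 12355 genes bright enough to be tested. Il10ra and Acod1 passed that filter through the graft arrays alone, since neither was well above background on any day 0 array.

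Rat vein was measured on 12 single-colour arrays, 3 at each of 4 times. Day 0 was vein of male rats that had no operation. Days 7, 14 and 28 were grafts of male rats, each an external jugular vein joined into the carotid artery that many days before collection. The labels give no strain, age or genotype, and beyond a mention of independent experiments after surgery nothing says that each array came from its own animal, so the p-values speak only of how far these samples differ among themselves, a spread that may be technical. With unoperated vein as the control, the operation itself and the life of the vein under arterial flow cannot be told apart. RNA came from the whole vessel, in which fewer cells of a type and less RNA per cell cannot be told apart.

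In an injured vessel wall, Tnf and the interleukin-1 cytokines are released by activated macrophages and other cells, act on receptors of smooth muscle, endothelium and leukocytes, and switch on the transcription factor NF-kB, which in turn raises many of the same cytokine genes. Brakes are made by the same cells: Il1rn encodes a protein that occupies the interleukin-1 receptor without signalling, and interleukin-10, acting through the receptor that Il10ra helps to form, restrains cytokine production in macrophages. Nos2 makes nitric oxide from arginine, Ptgs2 (cyclooxygenase 2) starts prostaglandin synthesis, and Acod1 makes itaconate, an immune metabolite, from a TCA cycle intermediate in activated macrophages.

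On all 3 graft days Tnf, Il1rn, Il10ra and Acod1 were higher than in unoperated vein, and Il10, the anti-inflammatory cytokine, was lower. Il1a, Il1b and Nos2 were higher at days 7 and 14 and did not pass the test at day 28. Il6 and Ptgs2 did not pass the test on any day. Il10 and the chain that binds it thus had changes of opposite sign in the same grafts. Counted over the 10 genes, 7 were called higher and 1 lower at day 7, where 33.1% of all tested probes were called, 17.7% higher and 15.4% lower. At day 14 the counts were again 7 higher and 1 lower, beside 37.5% of all probes called, 20.1% higher and 17.4% lower. At day 28 they were 4 higher and 1 lower, beside 33.9% of all probes, 17.4% higher and 16.5% lower. Il10ra and Acod1, which passed the brightness filter through the graft arrays alone, are among those called higher on each day. The 10 genes were chosen with earlier results of these data known, so these counts are no independent evidence of an excess. A call means an adjusted p under 0.05 in limma's moderated test, with Benjamini-Hochberg adjustment over 21063 probes. The median log2 change of the 10 genes was 3.43 at day 7, 3.69 at day 14 and 2.40 at day 28, beside medians of -0.03, 0.02 and 0.01 over all tested probes. Without regard to the test, 7 genes had all 3 arrays of day 7 above all 3 of day 0, as did 19.9% of all probes, and 1 had them all below, as did 19.6%. At day 14 the numbers were 8 above and 1 below, beside 25.9% and 25% of all probes, and at day 28 they were 5 and 1, beside 24% and 24.1%.

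The sequences just upstream of the genes called higher on all 3 graft days are shown because these genes moved together. They are the 250 bases before the annotated start, 5′ to 3′ on the gene's strand, from RefSeq on the rat assembly GRCr8. That assembly differs from rn4, on which the array was annotated. Tnf lies at chr20:3626435-3626684 on the plus strand, Il1rn at chr3:27520072-27520321 on the plus strand, Il10ra at chr8:54474787-54475036 on the minus strand and Acod1 at chr15:86286289-86286538 on the plus strand. Capitals mark letters that match a searched motif on either strand: GGG, 5 bases of any kind and CC, which is the frame of an NF-kB site; TGANTCA (AP-1); TTGCNNAA, the frame of a C/EBP site; and TATAAA.
Tnf: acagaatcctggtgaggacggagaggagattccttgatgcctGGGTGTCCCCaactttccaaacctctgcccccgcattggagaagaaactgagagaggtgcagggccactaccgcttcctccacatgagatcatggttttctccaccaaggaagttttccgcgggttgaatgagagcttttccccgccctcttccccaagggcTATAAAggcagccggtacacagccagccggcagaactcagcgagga
Il1rn: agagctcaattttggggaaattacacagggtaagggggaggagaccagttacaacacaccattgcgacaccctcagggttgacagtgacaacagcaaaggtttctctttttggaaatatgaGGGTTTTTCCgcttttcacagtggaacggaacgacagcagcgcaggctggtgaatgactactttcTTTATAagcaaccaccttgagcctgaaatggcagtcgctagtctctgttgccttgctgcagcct
Il10ra: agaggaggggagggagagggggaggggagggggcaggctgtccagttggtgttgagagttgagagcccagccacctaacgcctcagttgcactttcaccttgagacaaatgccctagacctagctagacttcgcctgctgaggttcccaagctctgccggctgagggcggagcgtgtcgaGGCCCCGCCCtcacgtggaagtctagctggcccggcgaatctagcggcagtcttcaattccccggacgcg
Acod1: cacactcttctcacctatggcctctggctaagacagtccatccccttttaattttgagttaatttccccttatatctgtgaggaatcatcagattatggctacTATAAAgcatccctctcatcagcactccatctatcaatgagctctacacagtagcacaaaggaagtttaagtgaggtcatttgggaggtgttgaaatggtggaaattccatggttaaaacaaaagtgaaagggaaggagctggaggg

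Counted from the gene's start, a match to the NF-kB frame begins at -208 in Tnf, -129 in Il1rn and -70 in Il10ra. The frame is common, and was held by 42.3% of 33469 rat promoters of the same length. That of Il10ra lies on the opposite strand. TATAAA begins at -46 in Tnf and -147 in Acod1 on the gene's strand, and Il1rn holds it on the opposite strand, where the match spans -64 to -59. It is held on either strand by 12.9% of all promoters. Of the 10 genes, 8 had a promoter entry. The NF-kB frame was found in 5 of the 8, TATAAA in 5, TTGCNNAA in 2 and TGANTCA in 1, and the last 2 are held by 9.22% and 6.34% of all promoters. Besides the genes shown, Il6 and Ptgs2 held the NF-kB frame and TTGCNNAA, and Il1a held TGANTCA. The motifs do not overlap in the 4 sequences shown. Such matches describe letters in a window; no binding was measured.

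Levels below are log2 of the processed intensity relative to the 75th percentile of the same array, so that 0 is the brightness of that percentile, and they are compared within a gene only. Changes are differences of the day means on that scale, ± SE from the limma fit with 3 arrays a day. No spot was saturated, the share of gene spots well above background ran from 71.9% to 82.6% over the arrays, and the number of arrays limits the precision. Markers of smooth muscle, the defining tissue of a vein wall, had a mean level of 1.76 to 3.42 on the graft arrays, against 5.73 to 6.49 on the day 0 arrays. Skeletal muscle markers averaged 2.24 to 5.84 at day 28, against -1.25 to -0.72 at day 0, and 8 of the 9 were called higher at day 28. Per the file headers the arrays were read in 4 scans, which did not mix the days evenly. The first scan held day 14 replicates 2 and 3 with day 28 replicates 1 and 2, another held the 3 day 7 arrays with day 14 replicate 1, another held day 0 replicates 1 and 2 with day 28 replicate 3, and day 0 replicate 3 was scanned apart. No scan therefore held day 0 together with day 7 or day 14.

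**Figure D1:**
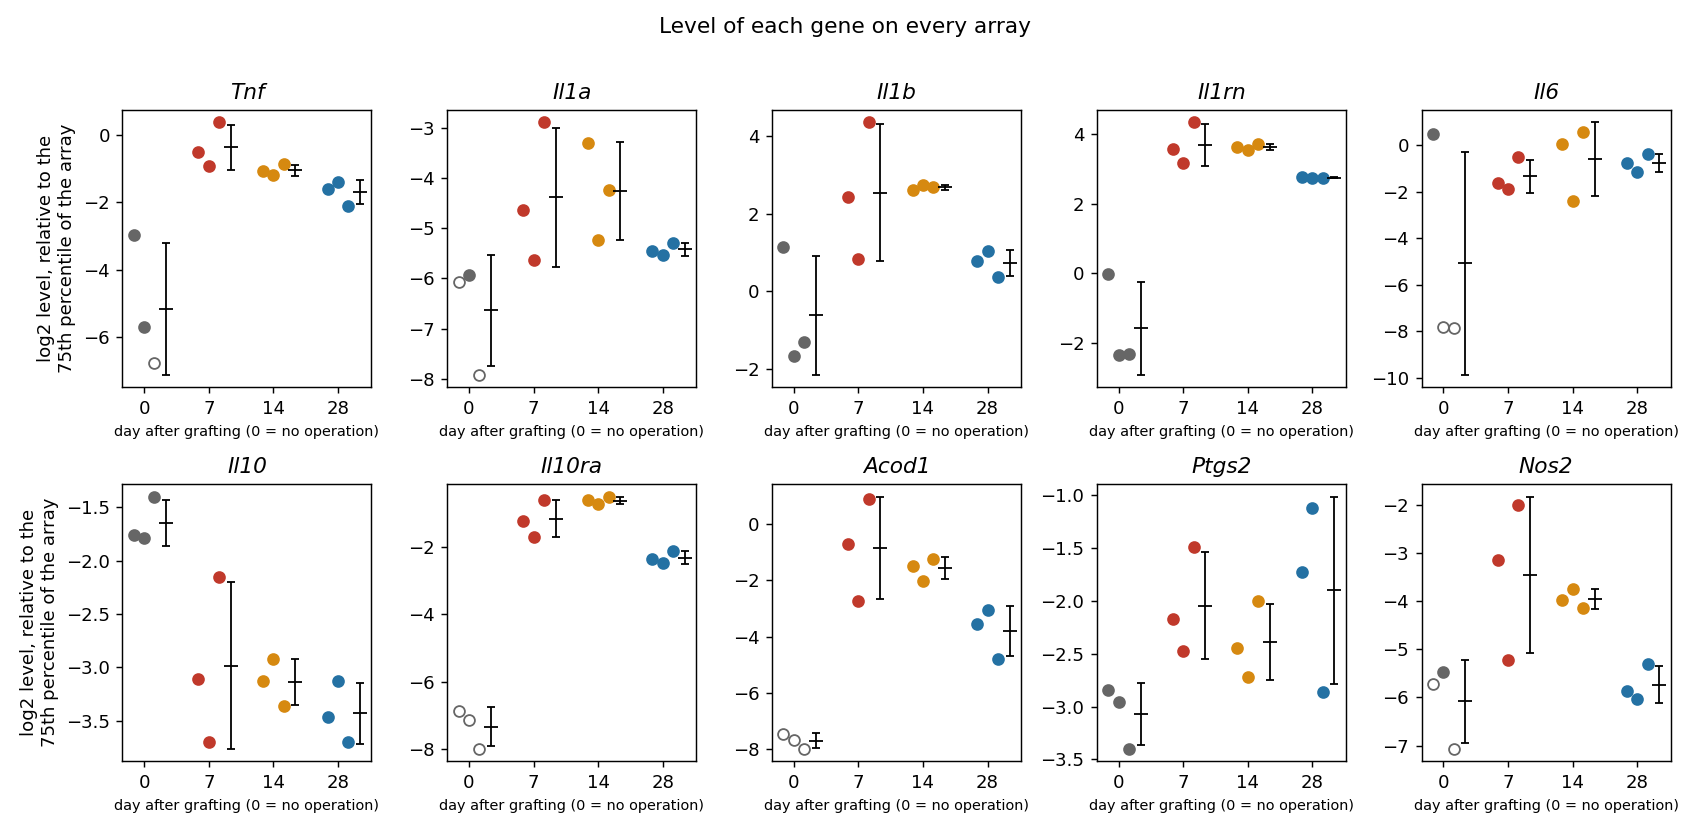
Log2 level of each of the 10 genes on every array, relative to the 75th percentile of the array, against day after grafting (0 = no operation). Points are arrays, open points were not well above background, and the bar beside each day is the mean ± SD (n = 3). Tnf, Il1a, Il1rn, Il10ra and Acod1 lie above day 0 on all 9 graft arrays and Il10 lies below it on all 9. For Il6 the day 0 arrays span from -7.85 to 0.45.

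Tnf encodes tumour necrosis factor, and among the days its mean level was highest at day 7. It stood at -2.99, -5.70 and -6.78 in the day 0 veins, the lowest of which was not well above background. Its level was -0.53, -0.94 and 0.36 at day 7, -1.08, -1.20 and -0.88 at day 14, and -1.60, -1.41 and -2.11 at day 28. No graft array overlapped the day 0 arrays, although day 0 replicate 1 stood well above the other two. Against day 0 the log2 change of Tnf was 4.79 ± 0.77 at day 7, 4.10 ± 0.77 at day 14 and 3.45 ± 0.77 at day 28, with limma adjusted p of 0.00115, 0.00221 and 0.00706. The order of the day means was 7, 14, 28 and then 0, and no pair of graft days differed past the test. Day 28 minus day 7 was -1.34 ± 0.77, with the 3 arrays of day 28 below all 3 of day 7 and a limma adjusted p of 0.401. Under the normexp background correction of the raw signals, the changes of Tnf against day 0 were smaller, at 2.90, 2.14 and 1.56. All 3 calls were kept there, with limma adjusted p of 0.00045, 0.0021 and 0.016.

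The interleukin-1 ligands were called higher at days 7 and 14 only. Il1b, the secreted form that is matured by caspase 1, had levels of 1.13, -1.67 and -1.30 at day 0. It had 2.43, 0.83 and 4.33 at day 7, 2.60, 2.72 and 2.67 at day 14, and 0.79, 1.04 and 0.37 at day 28. The day 14 arrays lay within a narrow band above every day 0 array, the day 7 arrays were widely spread and 1 of them fell below day 0 replicate 1, and the day 28 arrays all lay below that replicate. Changes against day 0 were 3.14 ± 0.85 at day 7 (limma adjusted p 0.0174), 3.28 ± 0.85 at day 14 (0.0126) and 1.35 ± 0.85 at day 28 (0.245). Without day 0 replicate 1 the day 28 change of Il1b was 2.22 and passed the test, with an adjusted p of 0.0478. The day 7 call was lost without day 0 replicate 2 (2.61, adjusted p 0.0626) and without day 0 replicate 3 (2.80, adjusted p 0.0505).

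Il1a, the form that is active without caspase 1 and is released by damaged cells, was faint throughout. Its levels were -6.07, -5.93 and -7.92 at day 0, where only replicate 2 was well above background. It had -4.63, -5.63 and -2.90 at day 7, -3.30, -5.24 and -4.24 at day 14, and -5.45, -5.54 and -5.29 at day 28. Every graft array was above every day 0 array, by a small margin at day 28. The changes were 2.25 ± 0.74 at day 7 (limma adjusted p 0.0396), 2.38 ± 0.74 at day 14 (0.0282) and 1.21 ± 0.74 at day 28 (0.228). Of 26 alternative settings, 14 ended the day 7 call of Il1a and 7 ended the day 14 call. Without day 7 replicate 3 the day 7 change was 1.50 (adjusted p 0.119), and without day 0 replicate 3 it was 1.61 (adjusted p 0.115). Without that day 0 array the day 14 change was 1.74 (adjusted p 0.0914).

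Interleukin-6, which drives the acute-phase response and signals through Stat3, gave the widest spread in unoperated vein. Il6 measured 0.45, -7.81 and -7.85 on the day 0 arrays, of which only replicate 1 was well above background. On graft arrays it was well above background throughout, at -1.63, -1.89 and -0.53 on day 7, 0.02, -2.40 and 0.55 on day 14, and -0.79, -1.17 and -0.41 on day 28. Day 0 replicate 1 was thus brighter for Il6 than 8 of the 9 grafts, and the other day 0 arrays were dimmer than all of them. With that array in the fit the changes were 3.72, 4.46 and 4.28 at days 7, 14 and 28, each ± 1.84, and the limma adjusted p were 0.148, 0.0807 and 0.097. Without it no day 0 array was well above background, so that only bounds can be given. Il6 was then at least 42.4-fold, 70.9-fold and 62.5-fold higher at days 7, 14 and 28 than on the other 2 day 0 arrays. All 3 changes passed the test in that fit (limma adjusted p 0.000233, 0.000106 and 0.000175). These p-values rest on 2 day 0 readings not well above background and do not test the bounds. Over all removals of 1 array the adjusted p reached 0.388, 0.24 and 0.272 on the 3 days.

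Il1rn, the interleukin-1 receptor antagonist, was well above background on all arrays and was higher in every graft. It measured -0.03, -2.36 and -2.33 at day 0. Graft levels were 3.55, 3.15 and 4.33 at day 7, 3.61, 3.54 and 3.71 at day 14, and 2.76, 2.72 and 2.74 at day 28, where the SD over the 3 arrays was 0.02. The changes were 5.25 ± 0.54, 5.19 ± 0.54 and 4.31 ± 0.54 at days 7, 14 and 28, with limma adjusted p of 9.03e-05, 7.29e-05 and 0.000376, and no graft array came near the day 0 range. At day 28, when the change of Il1b no longer passed the test, that of the antagonist did; the difference between their changes was not tested. The day 28 call of Il1rn was kept under all 26 alternative settings, with changes between 3.92 and 5.08.

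Interleukin-10 was the one member whose level fell. Il10 measured -1.76, -1.78 and -1.40 at day 0. It measured -3.11, -3.70 and -2.15 at day 7, -3.13, -2.93 and -3.36 at day 14, and -3.47, -3.13 and -3.70 at day 28. The probe was well above background on all 12 arrays, and all 9 graft arrays were below all 3 day 0 arrays. Il10 fell by 1.34 ± 0.34 at day 7, by 1.49 ± 0.34 at day 14 and by 1.79 ± 0.34 at day 28 on the log2 scale, with limma adjusted p of 0.0135, 0.0068 and 0.00345. The normexp background correction, applied to the raw spot and background signals, ended all 3 calls: the changes became -0.19 at day 7, -1.05 at day 14 and -1.29 at day 28 (adjusted p 0.738, 0.108 and 0.0602). Under that correction the median change of all probes was 0.45 at day 7, -0.07 at day 14 and -0.17 at day 28.

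The receptor chain Il10ra, which binds interleukin-10 and pairs with the broadly expressed chain Il10rb, was bright in the grafts and dark in unoperated vein. On the day 0 arrays Il10ra read -6.87, -7.12 and -7.98, not well above background on any. Graft levels were -1.23, -1.70 and -0.61 at day 7, -0.62, -0.75 and -0.53 at day 14, and -2.37, -2.50 and -2.12 at day 28. The signal of the unoperated vein is therefore only a bound, set on each array at the dimmest signal that was still well above background there, or at the probe's reading where that was brighter. On that basis Il10ra was at least 40.1-fold, 58.6-fold and 18.1-fold higher at days 7, 14 and 28 than at day 0. The limma adjusted p of 2e-06, 9.83e-07 and 1.11e-05 came from the day 0 readings themselves and do not test these bounds. The call held under all 26 alternative settings on each day. All of them set the grafts against day 0 spots not well above background, so they add no independent evidence. The size of the change did not hold. Under normexp, which corrects the raw signals for background in another way, the log2 changes of Il10ra were 2.88, 2.97 and 1.53. These values lie well under the bounds. The bounds given for this and other genes thus hold for the scanner's own background correction. Il10rb also rose on all 3 days, by 1.26 ± 0.25, 1.31 ± 0.25 and 1.28 ± 0.25 in log2, with limma adjusted p of 0.00389, 0.00267 and 0.00383.

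Between graft days, Il10ra was the one gene of the 10 with a call. It fell by 1.69 ± 0.33 on the log2 scale at day 28 relative to day 14 (limma adjusted p 0.0202), where 4.48% of all probes were called and 2.08% were called lower. The day 28 arrays were all below the day 14 arrays, and within the scan that held both days the difference was -1.79. With the scan as a fixed block the call was lost (-1.79, adjusted p 0.0761). The call was lost in 8 of the 26 alternative settings, among them quantile normalization (adjusted p 0.0555) and the removal of any day 14 array and of day 28 replicate 1 or 2, with adjusted p between 0.00645 and 0.0913 over the single-array removals.

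The other comparisons of graft days gave no call in the 10 genes by limma. At day 14 against day 7 there were 0 calls, beside 3.26% of all probes, and at day 28 against day 7 there were 0, beside 1.78%. At an unadjusted p under 0.05 the counts were 0 for day 14 minus day 7, 4 for day 28 minus day 14 and 3 for day 28 minus day 7, beside 15.6%, 22.9% and 17.4% of all probes. At day 28, 7 of the 10 genes had all 3 arrays below all 3 of day 14, namely Tnf, Il1a, Il1b, Il1rn, Il10ra, Acod1 and Nos2, and 27.8% of all probes did the same. Against day 7 the number was 5, where 18% of all probes did so. The median change of the 10 genes was -1.02 for day 28 minus day 14 and -0.11 for day 14 minus day 7. A fit with array quality weights called 9 of the 10 for day 28 minus day 14 and also 9 for day 28 minus day 7, of which 8 were lower in each case, but it also called 78% and 63.8% of all probes in these comparisons.

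Acod1, whose product itaconate restrains macrophage metabolism and cytokine output, was also dark in unoperated vein. It read -7.44, -7.65 and -7.98 at day 0, and none of these was well above background. At day 7 it read -0.71, -2.75 and 0.88, at day 14 -1.49, -2.01 and -1.23, and at day 28 -3.56, -3.05 and -4.78. The grafts all lay above day 0, with the day 28 arrays the lowest of them and the day 7 arrays spread from -2.75 to 0.88. Acod1 was at least 50.2-fold, 30.5-fold and 6.55-fold higher at days 7, 14 and 28 than at day 0. The limma adjusted p of 0.000132, 0.000199 and 0.00364 came from the day 0 readings themselves and do not test these bounds. Under normexp the log2 changes of Acod1 were 3.50, 2.24 and 0.72, and the day 28 call was lost with an adjusted p of 0.29. Day 28 minus day 7 was -2.94 ± 0.76 and missed the threshold with a limma adjusted p of 0.085.

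Nos2 encodes the inducible nitric oxide synthase of activated macrophages. Its level was -5.71, -5.47 and -7.07 at day 0, where replicate 2 alone was well above background. It was -3.16, -5.22 and -2.01 at day 7, -3.99, -3.75 and -4.15 at day 14, and -5.86, -6.04 and -5.30 at day 28. Days 7 and 14 lay above day 0 on all arrays, and day 28 overlapped it. The changes were 2.62 ± 0.69 (limma adjusted p 0.0152), 2.12 ± 0.69 (0.0342) and 0.35 ± 0.69 (0.722) at days 7, 14 and 28. Removing any day 14 array ended the day 14 call (changes of 2.01 to 2.22, adjusted p 0.0718 to 0.0892). So did removing day 0 replicate 3, with a change of 1.63 and an adjusted p of 0.109. At day 7 the call was lost without day 7 replicate 1 (2.47, adjusted p 0.0527). Both calls also ended with array quality weights, with adjusted p of 0.066 on day 7 and 0.142 on day 14.

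Ptgs2, cyclooxygenase 2, was not called on any graft day. It read -2.85, -2.96 and -3.40 at day 0 and was well above background on every array. It read -2.18, -2.47 and -1.49 at day 7, -2.44, -2.72 and -2.01 at day 14, and -1.73, -1.12 and -2.86 at day 28. All arrays of days 7 and 14 lay above day 0, and day 28 replicate 3 fell among the day 0 arrays. The changes of Ptgs2 were 1.02 ± 0.42, 0.68 ± 0.42 and 1.17 ± 0.42, with limma adjusted p of 0.0891, 0.232 and 0.0559. Leaving out day 28 replicate 3 brought the day 28 change to 1.65 (adjusted p 0.00987) and the day 7 change, at 1.02, to an adjusted p of 0.0358. With the scan as a fixed block the day 7 and day 14 changes turned to -0.50 and -0.90.

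**Figure D2:**
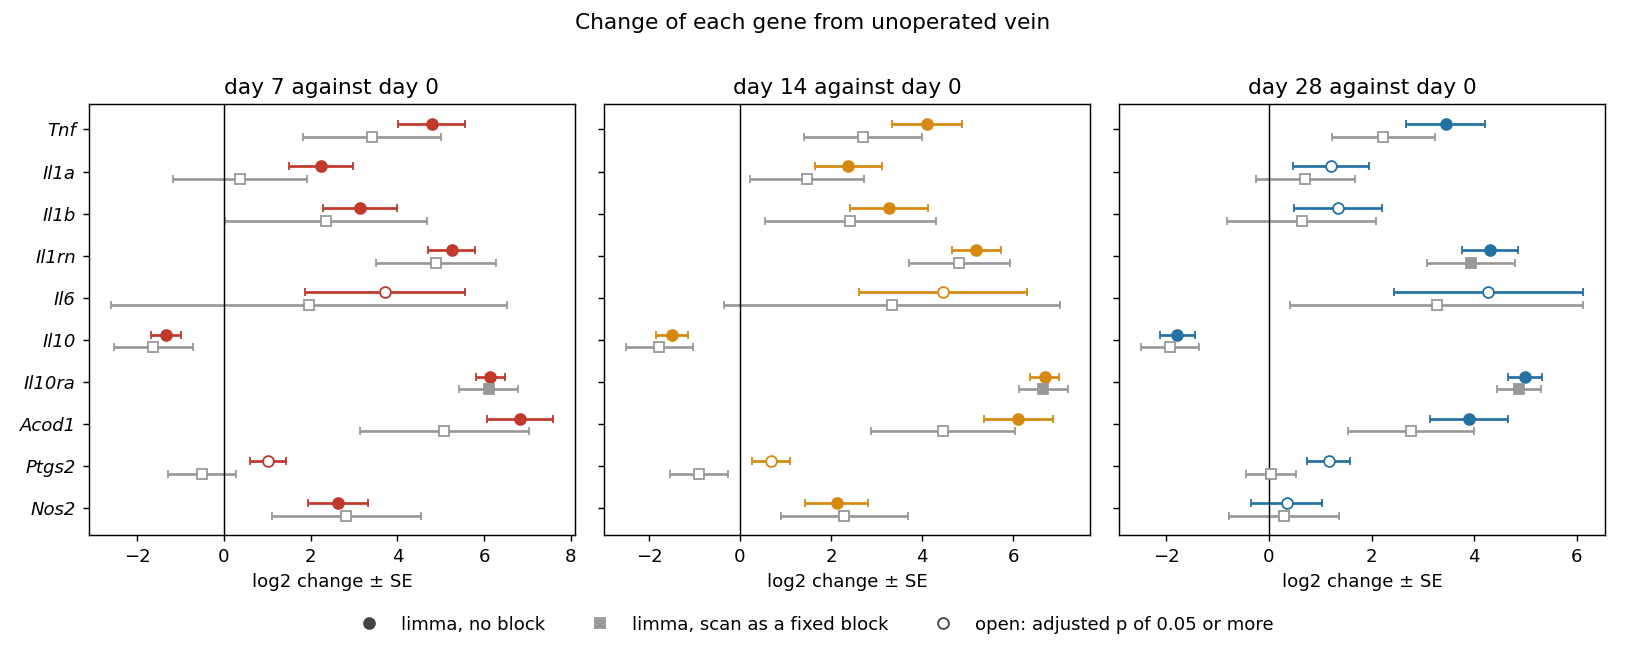
Log2 change ± SE of each gene against unoperated vein at days 7, 14 and 28, from limma with no block (circles) and with the scan as a fixed block (grey squares). Filled symbols have an adjusted p under 0.05. With the block, filled squares are left for Il10ra on all 3 days and for Il1rn at day 28. The day 0 signals of Il10ra and Acod1 were not well above background, so their fitted changes are no measure of size.

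Scan moved with day. As no scan held day 0 with day 7 or day 14, a block fit linked them only through arrays of other days. With the scan as a fixed block, 1 of the 10 genes was called at day 7 and 1 at day 14, both times Il10ra with adjusted p of 0.0351 and 0.00453. At day 28 the 2 genes called were Il10ra (adjusted p 0.00384) and Il1rn (0.044). The p-values of Il10ra rest on day 0 readings not well above background. The same fit called 0.261%, 4.91% and 6.47% of all probes on the 3 days. The block widened the SE: at day 7 Tnf was 3.41 ± 1.60 (4.79 ± 0.77 without it) and Il1a 0.38 ± 1.55 (2.25 ± 0.74). A lost call can thus reflect the wider SE, a smaller change or both. Day 28 replicate 3 shared a scan with day 0 replicates 1 and 2. There the graft array was above both day 0 arrays for Tnf, Il1a, Il1rn, Il10ra, Acod1 and Nos2. It lay above their mean by 2.23 in log2 for Tnf, 3.94 for Il1rn, 0.71 for Il1a and 0.29 for Nos2. Day 0 replicate 1 was not well above background for Il1a or Nos2. For Il10ra and Acod1, whose day 0 spots were not well above background, the graft array was at least 18.8-fold and 2.99-fold higher. For Il10 it was below both, with a log2 difference from their mean of -1.93. For Il1b, Il6 and Ptgs2 that array lay between the 2 day 0 arrays. For days 7 and 14 against day 0 no scan gives such a value.

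Cell markers moved with these genes. Of 17 macrophage and monocyte markers, 15 were called higher at day 7, 16 at day 14 and 14 at day 28. Their mean level was -0.62 to 1.55 on the day 0 arrays, and 3.10 to 4.15, 3.73 to 3.95 and 2.95 to 3.07 on those of days 7, 14 and 28. Among the 17, Cd163 alone was not well above background on any day 0 array. Of 6 neutrophil markers, 6 were called higher at day 7, 4 at day 14 and 0 at day 28. Their mean level was -5.41 to -3.93 at day 0, -2.58 to 0.31 at day 7, -1.83 to -1.54 at day 14 and -4.01 to -3.85 at day 28. The neutrophil collagenase Mmp8 rose by 5.48 ± 0.77 at day 7 and the receptor Csf3r by 4.27 ± 0.64 (limma adjusted p 0.000523 and 0.000779), while at day 28 their changes were 1.70 ± 0.77 and 1.75 ± 0.64 (0.111 and 0.0569). Fpr1 was not well above background on the arrays of days 0 and 28. Of 11 T and NK cell markers, 8, 9 and 6 were called higher on the 3 graft days. The part of cell makeup in the changes of the 10 genes was not tested.

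At day 7 the 10 genes shared their highest and lowest arrays: replicate 3 was the highest of the 3 arrays for 10 of the 10 genes and replicate 2 the lowest for 10 of 10, whether the gene was above or below day 0. Over all tested probes, replicate 3 was the highest for 41.3% and replicate 2 the lowest for 35.3%. The neutrophil markers had their highest mean level, 0.31, on replicate 3 and their lowest, -2.58, on replicate 2, and the macrophage markers had 4.15 and 3.10 on the same arrays. Day 7 replicate 3 was 1 of 2 arrays with many non-uniform spots, 393 of 42136 against 2 or 3 on the others of that day. At day 0, replicate 1 was the highest for 7 of the 10 genes, as for 34.6% of all probes, and had the highest macrophage marker level of the day, 1.55 against -0.43 and -0.62. The genes were divided at day 14, where replicate 3 was the highest for 6 and replicate 2 the lowest for 7, and at day 28, where replicate 2 was the highest for 5 and the lowest for 5. The order at day 7 was noticed in the values, and its source was not tested.

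**Figure D3:**
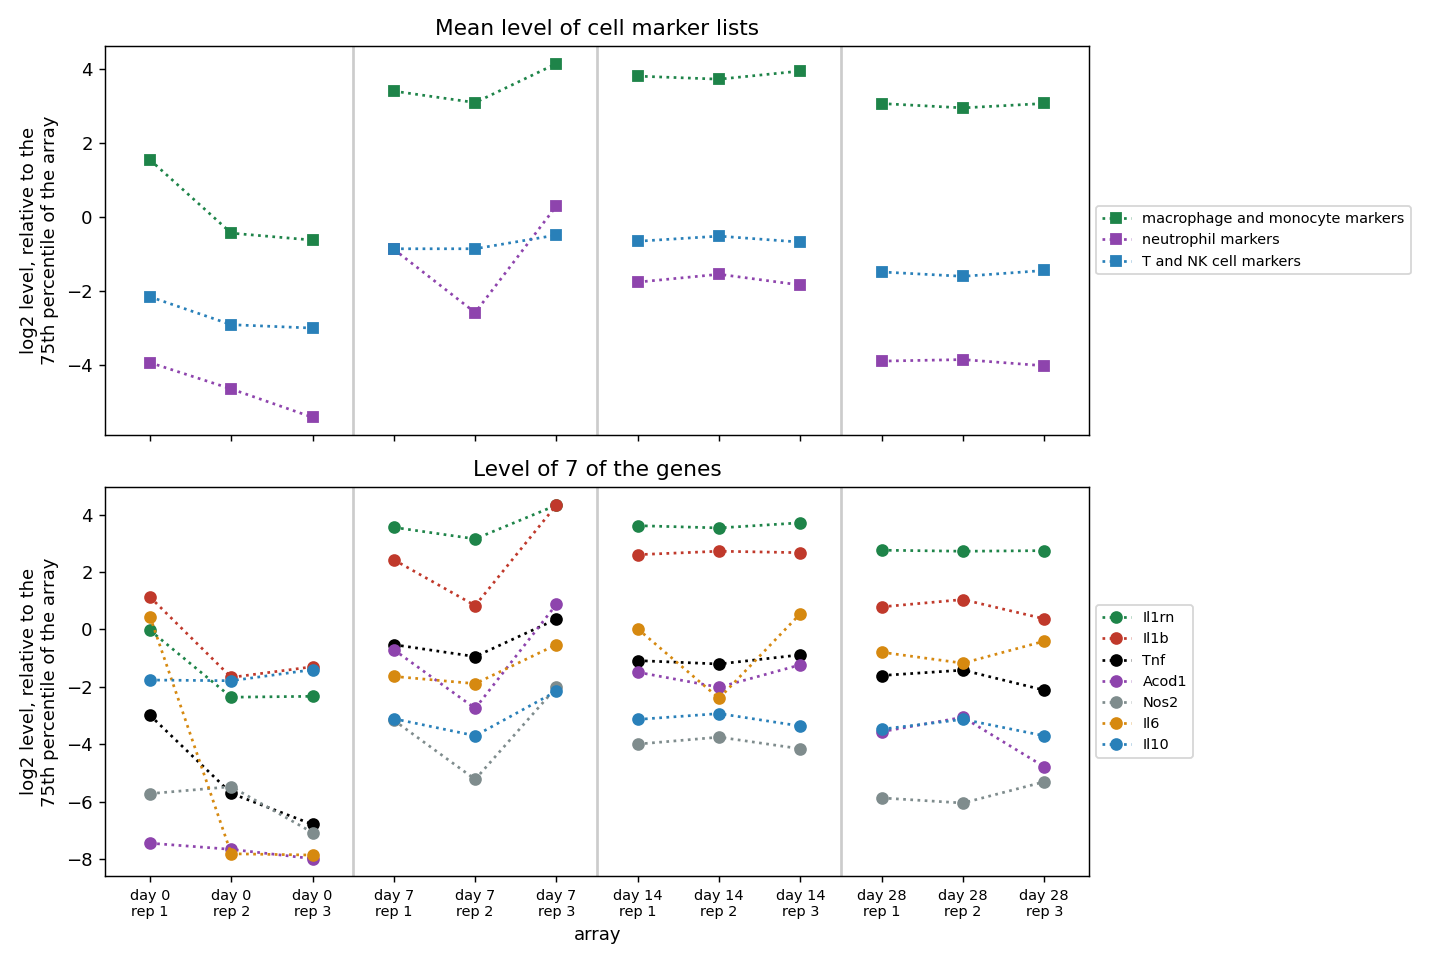
Mean log2 level of macrophage and monocyte (17 genes), neutrophil (6) and T and NK cell (11) markers on each array, above, and the level of 7 of the 10 genes on the same arrays, below. Dotted lines only join the arrays of 1 day, whose numbers are names. At day 7 the lowest array of the neutrophil markers and of all 7 genes is replicate 2 and the highest is replicate 3, and at day 28 the neutrophil markers, at -4.01 to -3.85, lie near the top of their day 0 range of -5.41 to -3.93.

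Beyond the 10 genes, 187 genes of their pathways were gathered in 11 lists, of which 151 were on the array and 143 were tested. Of these, 48 were called higher and 17 lower at day 7, 56 and 21 at day 14, and 43 and 15 at day 28. That is 33.6%, 39.2% and 30.1% called higher, beside 17.7%, 20.1% and 17.4% of all probes. Called lower were 11.9%, 14.7% and 10.5%, beside 15.4%, 17.4% and 16.5% of all probes. These all-probe shares also stand beside the counts of each list below. The lists were chosen with earlier results of these data known, so an excess in them is no independent evidence. The medians of the lists' genes were 0.37, 0.37 and 0.41. With the scan as a fixed block, 2, 12 and 17 of the 143 were called on the 3 days, beside 0.261%, 4.91% and 6.47% of all probes.

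In the interleukin-1 list, 3 of 11 tested genes were higher and 1 lower at day 7, 6 and 1 at day 14, and 3 and 0 at day 28. The largest change was in Il1rl1, the receptor for interleukin-33, which rose by 5.63 ± 0.34, 6.53 ± 0.34 and 4.49 ± 0.34 on the 3 days (limma adjusted p 4.69e-06, 1.4e-06 and 2.21e-05) and fell by 2.04 at day 28 relative to day 14 (adjusted p 0.0116). Its ligand gene Il33 was lower, with changes of -0.75 ± 0.24 at day 7 and -0.88 ± 0.24 at day 14 (adjusted p 0.0379 and 0.0171). Il18, a sister of Il1b that caspase 1 also matures, rose by 4.39, 4.40 and 3.77, each ± 0.68. Pycard, the adaptor of the inflammasome, rose by 2.31, 2.27 and 1.64, each ± 0.25. Casp1 itself changed by 1.36 ± 0.57, 1.77 ± 0.57 and 1.28 ± 0.57, with a call at day 14 alone (adjusted p 0.0319).

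For Tnf, the receptors and signalling list held 10 tested genes, of which 5, 8 and 5 were higher and 0 lower on the 3 days. Tnfrsf1b, the receptor chain found mostly on leukocytes and endothelium, rose by 2.94, 3.03 and 2.24, each ± 0.43. Birc3, a ubiquitin ligase of the receptor complex, rose by 2.10, 2.39 and 1.56, each ± 0.32, and the necroptosis kinase Ripk3 by 2.07, 2.08 and 1.76, each ± 0.36. Ltb, a ligand of the same family, rose by 2.88 ± 0.43 and 2.20 ± 0.43 at days 7 and 14 and did not pass at day 28 (0.51 ± 0.43, limma adjusted p 0.374).

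The interleukin-6 family list had 5, 6 and 5 of 13 genes higher and 1 lower on each day. The cytokine gene Osm was not well above background in any day 0 vein, and was at least 4.06-fold, 10.1-fold and 2.38-fold higher at days 7, 14 and 28. Osm levels were -3.83, -5.47 and -3.93 at day 7, -3.19, -3.23 and -2.84 at day 14, and -5.38, -5.33 and -4.83 at day 28. Its receptor chain Osmr rose by 1.96, 2.32 and 2.40, each ± 0.39, and Il6r, the binding chain for interleukin-6, by 1.56, 1.91 and 0.84, each ± 0.29 (limma adjusted p 0.00269, 0.000695 and 0.0488). The gene called lower on all 3 days was Lifr, with changes of -2.05, -1.73 and -2.42, each ± 0.30.

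Around interleukin-10 the list was mixed, with 2 higher and 0 lower at day 7, 2 and 1 at day 14, and 1 and 2 at day 28 of 8 tested genes. Besides Il10rb, the called genes were Il22ra2, a soluble interleukin-22 binding protein, which rose by 1.68 ± 0.43 and 1.50 ± 0.43 at days 7 and 14, Il20, which was lower with changes of -1.82 ± 0.61 and -1.99 ± 0.61 at days 14 and 28, and Socs1, a brake on cytokine signalling, which fell by 1.24 ± 0.34 at day 28. In the NF-kB list 2, 3 and 1 of 9 tested genes were higher and 0 lower. Beside both lists, 17.7%, 20.1% and 17.4% of all probes were called higher and 15.4%, 17.4% and 16.5% lower. Nfkbie, an inhibitor of NF-kB that NF-kB itself induces, was the gene called on all 3 days, with changes of 3.55, 3.39 and 3.73, each ± 0.48. Nfkbia, Tnip1, Zfp36 and Zc3h12a of the same list were tested and not called on any day. Tnfaip3 and Nfkbiz were not on the array. Nfkb2 rose by 1.27 ± 0.22 at day 7 and 0.77 ± 0.22 at day 14.

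**Figure D4:**
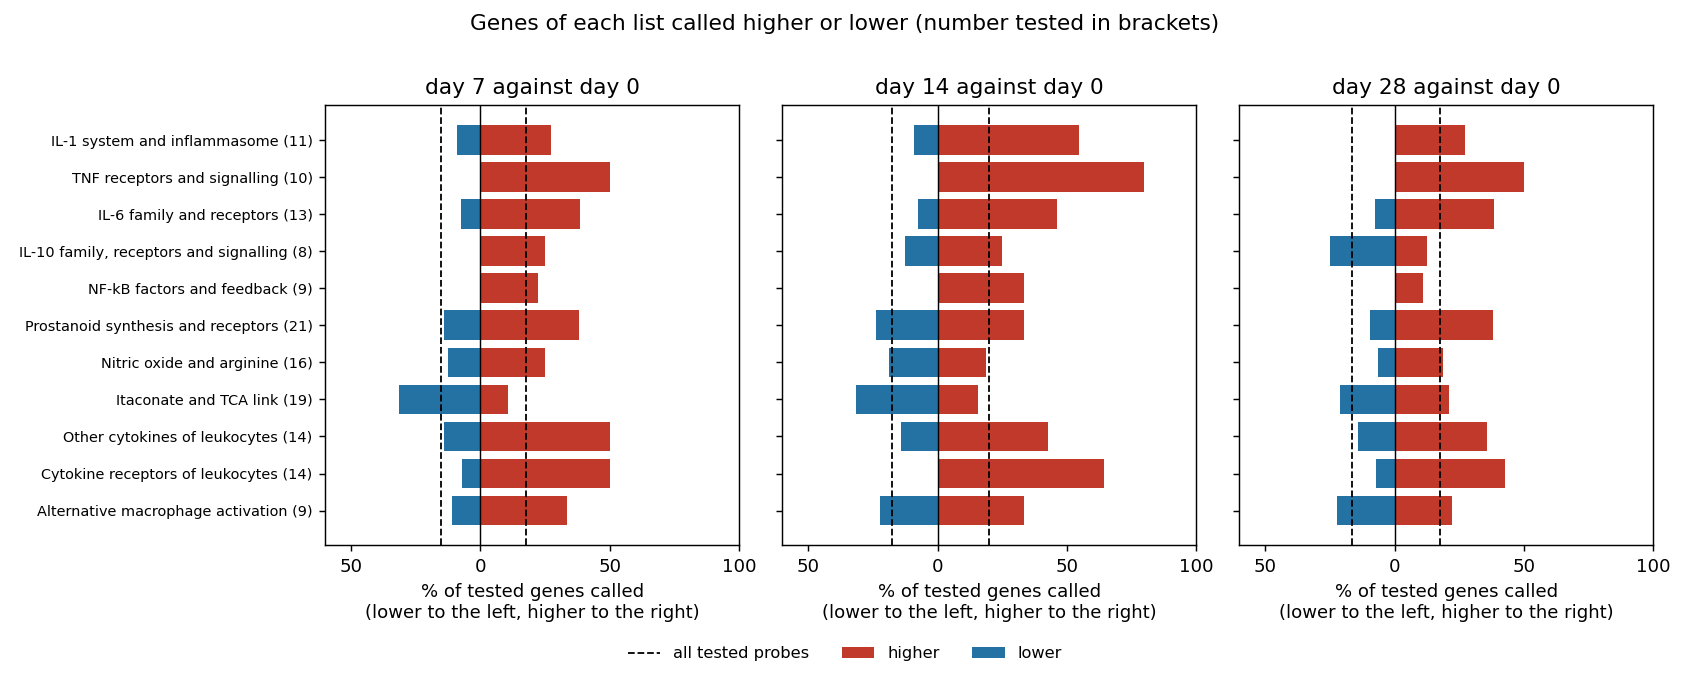
Share of the tested genes of each of 11 pathway lists called higher (to the right) or lower (to the left) at days 7, 14 and 28 against day 0, with the number tested in brackets. Dashed lines are the shares over all 21063 tested probes. The TNF receptor list reaches 8 of 10 genes higher at day 14, and the itaconate and TCA list has 6 of 19 lower at days 7 and 14.

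The enzyme lists held genes called in both directions. Of 21 tested genes of prostanoid and leukotriene synthesis and sensing, 8, 7 and 8 were higher and 3, 5 and 2 lower on the 3 days. Tbxas1, thromboxane synthase, rose by 4.26, 5.17 and 4.21, each ± 0.52, and Alox5ap, which serves leukotriene synthesis, by 3.21, 2.68 and 2.02, each ± 0.53. Hpgd, the enzyme that breaks prostaglandins down, rose by 2.21, 2.60 and 2.38, each ± 0.29. Ptger2, a receptor for prostaglandin E2, was not well above background at day 0 and was at least 23.5-fold, 27.6-fold and 14.3-fold higher in the grafts. Among 16 nitric oxide and arginine genes, 4, 3 and 3 were higher and 2, 3 and 1 lower. Over all probes 17.7%, 20.1% and 17.4% were called higher and 15.4%, 17.4% and 16.5% lower. Arg1, arginase, which competes with Nos2 for arginine, rose by 2.84, 3.83 and 4.03, each ± 0.57, with limma adjusted p of 0.00397, 0.00059 and 0.000728. Its level was -1.65, -2.79 and -1.91 at day 0, 0.66, 0.65 and 0.86 at day 7, 1.87, 1.06 and 2.23 at day 14, and 2.22, 0.51 and 3.03 at day 28. At day 28 Arg1 was thus called higher while Nos2 was not, and the difference between these changes was not tested. Gucy1b1, a subunit of the nitric oxide receptor of smooth muscle, was lower on all 3 days, with changes of -3.34, -3.70 and -2.41, each ± 0.26.

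Acod1 draws its substrate from the TCA cycle. Of 19 genes of the itaconate and TCA list, 2, 3 and 4 were higher and 6, 6 and 4 lower on the 3 days. Suclg1, a subunit of succinate-CoA ligase, was lower on all 3 days, with changes of -1.25, -1.08 and -1.12, each ± 0.20. Sdhc, a subunit of the succinate dehydrogenase that itaconate inhibits, changed by -1.21, -0.93 and -0.87, each ± 0.21, and Idh2 by -1.19, -0.85 and -1.11, each ± 0.23. Hmox1, haem oxygenase and a target of the factor Nfe2l2, rose by 2.74 ± 0.63 at day 14 and 3.68 ± 0.63 at day 28 (limma adjusted p 0.00673 and 0.00192), with 1.78 ± 0.63 at day 7 (0.0527). Keap1, the partner that holds Nfe2l2 inactive, rose by 1.29, 1.33 and 1.23, each ± 0.24.

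Genes of the closest course over the 12 arrays were found by the root mean square difference in log2 after each gene was centred on its own mean, among 12126 genes. Il1rn lay nearest to Lcp1, an actin-bundling protein of leukocytes, at 0.20, with Bcl2a1 and Gpr65 at 0.24 each, where the median gene lay at 2.27. Tnf lay nearest to Rac2 at 0.40, followed by Ly86 and Bcl2a1 at 0.41. Il10ra lay nearest to the integrin gene Itgam, also on the macrophage list, at 0.42, and Acod1 to Fcar at 0.67. No day 0 reading of Il10ra or Acod1 was well above background, and for Il1a, Il6 and Nos2 only 1 of 3 was. Distances of these genes, also to each other, thus partly compare dim readings. Il1b was closest to Pglyrp1 at 0.50, Il1a to Gpr84 at 0.39 and Nos2 to Mxd1 at 0.42. The gene closest to Il6 was Fcrl2 at 1.16, where the median gene lay at 2.77. Il10 lay nearest to Insl3 at 0.23 and Ptgs2 to Scd2 at 0.34, with median genes at 0.97 and 0.83. Within the set the nearest member was Il1rn for Tnf (0.55) and Il10ra (0.69), and Il10ra for Acod1 (0.97). It was Nos2 for Il1a (0.69) and Il1b (0.85), and Tnf for Il6 (1.54). For Ptgs2 it was Il1a at 1.05 and for Il10 it was Ptgs2 at 1.19, each farther than the median gene.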

How the data were processed

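Gene expression was measured in 12 rat vein samples on single-colour Agilent arrays. The deposited scanner tables give each spot's intensity on a linear scale, which the scanner software (Agilent Feature Extraction, version 11.0.1.1) had corrected for background, per the file headers. A second table from the authors holds deposited log2 values of 24529 features, whose normalization is not given in the sources used here; its column medians lay at 7.15 and each column matched its own array best (r of at least 0.994).

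Here control spots and spots marked as outliers were left out, the log2 processed intensity was set relative to each array's 75th percentile, and 21063 of 24684 probes well above background on at least 3 arrays went into a limma fit (version 3.58.1, R 4.3.3) of all 12 arrays together, with Benjamini-Hochberg adjustment. Symbols came from RefSeq accessions: 14294 probes had 1, 0 had several and 10390 had none. Named list genes were the up to 6 called genes of each list with the largest change, besides all 10 members and, of the cell markers, those listed as defining. The 3 nearest genes of each member were sought, and the closest are named. Members and lists were chosen with earlier results of these data known. The alternatives were normexp (on median signals, as the files hold no mean signal), other scalings, the authors' table, other filters, outlier spots kept, scan as a fixed or random block, array weights, fewer arrays, and each array left out. The fit was tested on simulated data. Python 3.11.15 read the arrays and drew the plots.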

Additional observations from a re-analysis of the deposited data

Results flagged for a closer look

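Il10ra differed between graft days: day 28 minus day 14 was -1.69 ± 0.33 in log2, with a limma adjusted p of 0.0202 and all 3 day 28 arrays below all 3 day 14 arrays. It was the one gene of the 10 whose change between 2 graft days passed the test. The call was lost with the scan as a fixed block (adjusted p 0.0761), under quantile normalization (0.0555) and in 5 of the 12 fits that left out 1 array.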

How the results depend on the processing

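No paired analysis was possible because the labels carry the same replicate number on every array, so the numbers 1 to 3 are names and pair nothing across days. Counts of called genes are given out of the 10 genes and the 143 tested list genes, and the cause of the changes was not tested. With the scan as a fixed block, 1, 1 and 2 of the 10 were called at days 7, 14 and 28 against day 0, and 2, 12 and 17 list genes. The shares of all probes called were 0.261%, 4.91% and 6.47%. Day 0 replicate 3 was also counted with the scan of the other day 0 arrays, an alternative chosen after seeing the data. That gave 1, 2 and 2 of the 10 and 1, 10 and 17 list genes, beside 0.19%, 4.2% and 6.72% of all probes. Both block fits turned Ptgs2 at day 7 (-0.50 and -0.34) and day 14 (-0.90 and -0.73) and Il1a at day 28 minus day 7 (0.33 in both). They called 0 of the 10 at day 28 minus day 14, as did quantile normalization, beside 0.589%, 0.375% and 5.21% of all probes. Normexp called 5 at day 14, 3 at day 28 and 1 at day 28 minus day 7, beside 17.2%, 12.6% and 0.451% of all probes. It called 35 list genes at day 28. It turned Il1a at day 28 (-0.037) and at day 14 minus day 7 (-0.90), Il1rn at day 14 minus day 7 (0.15), Il6 and Ptgs2 at day 28 minus day 7 (-0.023 and -0.50) and Nos2 at day 28 (-0.21). A fit to only the arrays compared called 4 at day 7, with 38 list genes, and 5 at day 28 minus day 14, beside 13.7% and 30.2% of all probes. Array quality weights called 4 at day 14 minus day 7 and 9 at day 28 minus day 14 and minus day 7, beside 50.7%, 78% and 63.8% of all probes, and turned Il1rn (0.11) and Il10 (0.035) at day 14 minus day 7 and Nos2 at day 28 (-0.14). Without day 0 replicate 3 and day 7 replicate 3, the arrays with many non-uniform spots, 5 were called at day 7, 1 at day 14 minus day 7, 3 at day 28 minus day 14 and 1 at day 28 minus day 7, beside 38.9%, 11.5%, 22.8% and 4.43% of all probes. There the changes at day 14 minus day 7 turned for Il1rn (0.27), Il10 (0.26), Acod1 (0.15) and Nos2 (0.23), and Nos2 at day 28 was -0.14. Il1rn at day 14 minus day 7 also turned with quantile normalization (0.10) and the authors' values (0.11).

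Leaving out 1 array at a time, the called members ranged from 6 to 9 at day 7, 6 to 9 at day 14, 5 to 7 at day 28, 0 to 0 at day 14 minus day 7, 0 to 2 at day 28 minus day 14 and 0 to 2 at day 28 minus day 7. Over all probes the share called in the same fits ranged from 23.8% to 37.4%, 27.2% to 42.2% and 21.7% to 39.9% at days 7, 14 and 28. Between graft days, in the order given, it ranged from 1.07% to 6%, 0.774% to 10.8% and 0.161% to 3.05%. List genes ranged from 54 to 74, 60 to 83 and 40 to 74 on the 3 graft days. Changes that turned sign in such fits ranged, at day 14 minus day 7, from -0.49 to 0.87 for Il1a, -0.71 to 1.04 for Il1b, -0.32 to 0.27 for Il1rn, -0.51 to 0.26 for Il10, -1.66 to 0.15 for Acod1 and -1.38 to 0.23 for Nos2. Il6 at day 28 minus day 14 ranged from -1.08 to 0.40, Ptgs2 at day 28 minus day 7 from -0.25 to 0.62, and Nos2 at day 28 from -0.14 to 0.66. None of these was a call in the fit reported. Signal limits the genes near background. At day 0 the probes of Il10ra and Acod1 were well above it on 0 of 3 arrays. Those of Il1a, Il6 and Nos2 were well above it on 1 of 3, and that of Tnf on 2 of 3.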

Other observations

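Other cytokine genes of leukocytes moved in the same grafts. Of 14 tested, 7, 6 and 5 were called higher and 2, 2 and 2 lower at days 7, 14 and 28, in the same limma fit. Spp1, osteopontin, rose by 7.35 ± 0.29, 6.99 ± 0.29 and 6.89 ± 0.29, with levels of -0.23 to 0.76 at day 0, 7.09 to 8.09 at day 7, 7.10 to 7.22 at day 14 and 7.00 to 7.25 at day 28. Tgfb1 rose by 2.97, 2.86 and 3.19, each ± 0.36, and Csf1, the macrophage growth factor, by 1.69, 1.54 and 1.67, each ± 0.33. Il12a and Ebi3, whose products pair to form interleukin-35, had changes of opposite sign. Il12a read -0.60, 0.95 and -0.75 at day 0, -5.52, -5.44 and -8.02 at day 7, -5.50, -5.69 and -5.46 at day 14 and -5.52, -5.39 and -5.72 at day 28. Its changes were -6.19, -5.42 and -5.41, each ± 0.64, while those of Ebi3 were 5.01, 4.22 and 2.71, each ± 0.86.

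Receptors for leukocyte cytokines were called higher in 7, 9 and 6 of 14 tested genes and lower in 1, 0 and 1. Il7r rose by 4.73, 4.73 and 4.60, each ± 0.52, and Il21r by 3.32, 4.75 and 3.85, each ± 0.93. Genes of alternative macrophage activation were mixed, with 3, 3 and 2 of 9 higher and 1, 2 and 2 lower. Mrc1, the mannose receptor, rose by 2.06, 3.42 and 1.86, each ± 0.59, and Clec10a by 2.53, 2.40 and 1.91, each ± 0.56. Ccl24 rose by 3.16 ± 0.59 and 2.79 ± 0.59 at days 7 and 14 and had 0.59 ± 0.59 at day 28 (adjusted p 0.468). Tgm2 was lower on all 3 days, with changes of -2.81, -2.56 and -2.22, each ± 0.19, and Retnla at days 14 and 28, with -1.92 and -2.53, each ± 0.55.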
